A study of Mus musculus with 8 samples.

Results

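The genes described here are 62 of the 10412 genes in the deposited table. They were chosen by name, with earlier results of these data known. The rule took every symbol that begins with Hnrnp, with Srsf and a digit, with Snrp, with Sf3a or Sf3b, or with Lsm and a digit. They fall into 5 families, with 20 hnRNP genes, 10 SR genes, 11 Snrp genes, 9 Sf3a and Sf3b genes and 12 Lsm genes. The label of splicing factors holds for most of them by known function, but Lsm1, Lsm12, Lsm14a and Lsm14b, and Lsm10 and Lsm11 of the U7 particle that processes histone mRNA, are no spliceosome proteins. Genes named Snrnp do not match the rule and are counted with the other splicing genes further on.

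The spliceosome removes introns from nuclear transcripts. Its building blocks are small nuclear ribonucleoproteins (snRNPs), each an RNA wrapped by a ring of Sm proteins or, for U6, of LSm proteins, plus proteins specific to that particle. SF3a and SF3b are the parts of the U2 particle that hold the branch point. SR proteins bind exons and recruit the spliceosome, and hnRNP proteins coat the transcript and often act in the opposite sense. In immune cells hnRNPLL is known for its control of CD45 splicing in lymphocytes.

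The cells were sorted from popliteal lymph nodes of C57BL/6 chimeric mice on CD45, CD11c and MHC-II and are labelled dendritic cells (DCs). All mice were 16 weeks old and 8 weeks past their transplant. Resting mice received nothing and activated mice received 10 µg of an antibody against CD40, a receptor that licenses antigen-presenting cells, into the footpad. The labels name the chimeras as WT/WT and as ICAM-1/2 DKO/WT, here WT and DKO, so that every group carries a WT component and the labels do not say what other cells the host kept. Each of the 4 groups (WT resting, WT activated, DKO resting and DKO activated) has 2 libraries, with no statement of pooling or of separate animals. The p-values therefore rest on the spread of these libraries alone, and that spread may be technical.

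Bulk MARS-seq counts the 3′ ends of polyadenylated RNA as molecules with a unique identifier (UMIs), so the values are gene totals and say nothing of which exons were joined. Total UMIs ran from 401984 to 1294777 per library. Icam1 stood between 123 and 432 CPM (UMIs scaled to library size by TMM) in the 4 WT libraries and between 9.49 and 38.5 CPM in the 4 DKO libraries. Icam2 stood between 66.5 and 219 CPM in WT and between 93.1 and 230 CPM in DKO; a 3′ tag outside a deleted part would not check the label. Of the markers of the sorted cell type, MHC class II genes were high, with H2-Aa at 10096 CPM or more in every library, but Itgax, which encodes CD11c, lay between 16.1 and 43.0 CPM and Zbtb46, a classical DC factor, between 0 and 10.3 CPM. Cd79b, a B cell receptor gene picked from the marker list after its values were seen, lay between 2415 and 4392 CPM, values that go against libraries made of the labelled cell type alone. The summed level of 16 B cell markers was 11762 to 14323 CPM at rest and 9540 to 11652 CPM after activation, and that of 16 macrophage and monocyte markers was 2478 to 3238 CPM at rest and 5638 to 16417 CPM after activation. The part of such cells in the results below was not tested, and in bulk RNA fewer cells of a type and less RNA per cell cannot be told apart.

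Promoters are shown for the 3 genes with the smallest p after Snrpd1, for which none is shown: Snrpd3 and Snrpd2, which rose, and Srsf5, which fell. Each runs from 250 bases before to 50 bases after the RefSeq gene start on the plus strand of GRCm38.p6. Capitals mark matches, on either strand, to 5 short motifs: CACGTG (the E-box bound by MYC and MAX), CCGGAAG (the ETS core), CCAAT (the NF-Y box), ATGGCGG (the YY1 core) and TGCGCA (the NRF1 half-site).
Snrpd3, chr10:75517792-75518091: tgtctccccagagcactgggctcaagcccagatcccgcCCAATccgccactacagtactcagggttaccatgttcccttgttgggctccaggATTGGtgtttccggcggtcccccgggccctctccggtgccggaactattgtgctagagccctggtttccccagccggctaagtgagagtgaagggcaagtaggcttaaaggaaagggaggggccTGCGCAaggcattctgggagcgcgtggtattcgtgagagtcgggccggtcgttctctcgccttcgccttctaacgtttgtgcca
Snrpd2, chr7:19149588-19149887: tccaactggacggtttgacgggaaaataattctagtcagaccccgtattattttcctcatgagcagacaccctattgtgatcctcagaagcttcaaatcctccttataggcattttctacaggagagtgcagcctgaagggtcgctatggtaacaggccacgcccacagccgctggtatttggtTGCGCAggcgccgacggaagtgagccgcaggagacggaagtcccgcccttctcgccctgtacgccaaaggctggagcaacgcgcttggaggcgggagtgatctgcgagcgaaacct
Srsf5, chr12:80945249-80945548: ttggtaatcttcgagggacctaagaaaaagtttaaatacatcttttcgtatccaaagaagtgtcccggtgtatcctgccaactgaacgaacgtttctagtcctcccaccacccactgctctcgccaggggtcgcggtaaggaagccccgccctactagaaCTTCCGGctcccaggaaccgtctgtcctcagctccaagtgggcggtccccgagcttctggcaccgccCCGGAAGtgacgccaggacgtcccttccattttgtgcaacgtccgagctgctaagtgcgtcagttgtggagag
The Snrpd3 promoter holds CCAAT at positions -212 and, on the minus strand, -158, and TGCGCA at -34, counted from the gene start. The Snrpd2 promoter holds TGCGCA at -66. The Srsf5 promoter holds CCGGAAG at -90 on the minus strand and at -23 on the plus strand. Promoters were found for 53 members, 69 in all. ATGGCGG occurred in 23.2% of these, against 8.72% of the promoters of genes in the deposited table and 4.05% of all 32851 promoters. CCGGAAG occurred in 30.4% against 19.2% and 8.86%, TGCGCA in 27.5% against 14.2% and 7.76%, and CCAAT in 44.9% against 37.7% and 37.4%. CACGTG was about as frequent in member promoters as in those of the table, at 10.1% against 10.2%. It was found in 0 of 10 genes called higher with a promoter, 0 of 3 called lower and 6 of 40 not called. ATGGCGG was found in 1 of 10 genes called higher, 1 of 3 called lower and 11 of 40 not called, and CCAAT in 6, 1 and 19 of the same sets. Of the 5 motifs, 4 were thus more frequent in the promoters of all members together than in those of the table, and a match describes letters only.

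After activation the genes of core snRNP proteins were higher in most cases, and most SR and hnRNP genes were not called. In the mean of WT and DKO, 15 of the 60 members tested were higher and 4 lower at an adjusted p under 0.05 (edgeR quasi-likelihood F test, Benjamini-Hochberg over 8616 genes), the other 41 not being called. Across all tested genes 29.7 percent were called, 16.3 percent higher and 13.4 percent lower, so the members' share of 31.7% is near the background while their split is not: 25% higher and 6.67% lower. Hnrnph2, with 3 to 8 UMIs a library, and Lsm7, with 1 to 7, passed no filter on low counts and were not tested. Of the 11 Snrp genes 7 were higher and 0 lower, with a median log2 change of 0.77, where the median of all tested genes was -0.01. Of the 11 tested Lsm genes 4 were higher and 0 lower (median 0.19). Of 9 Sf3 genes 2 were higher and 1 lower (median 0.24), of 10 SR genes 1 was higher and 1 lower (median 0.18), and of 19 tested hnRNP genes 1 was higher and 2 lower (median -0.12).

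**Figure D1:**
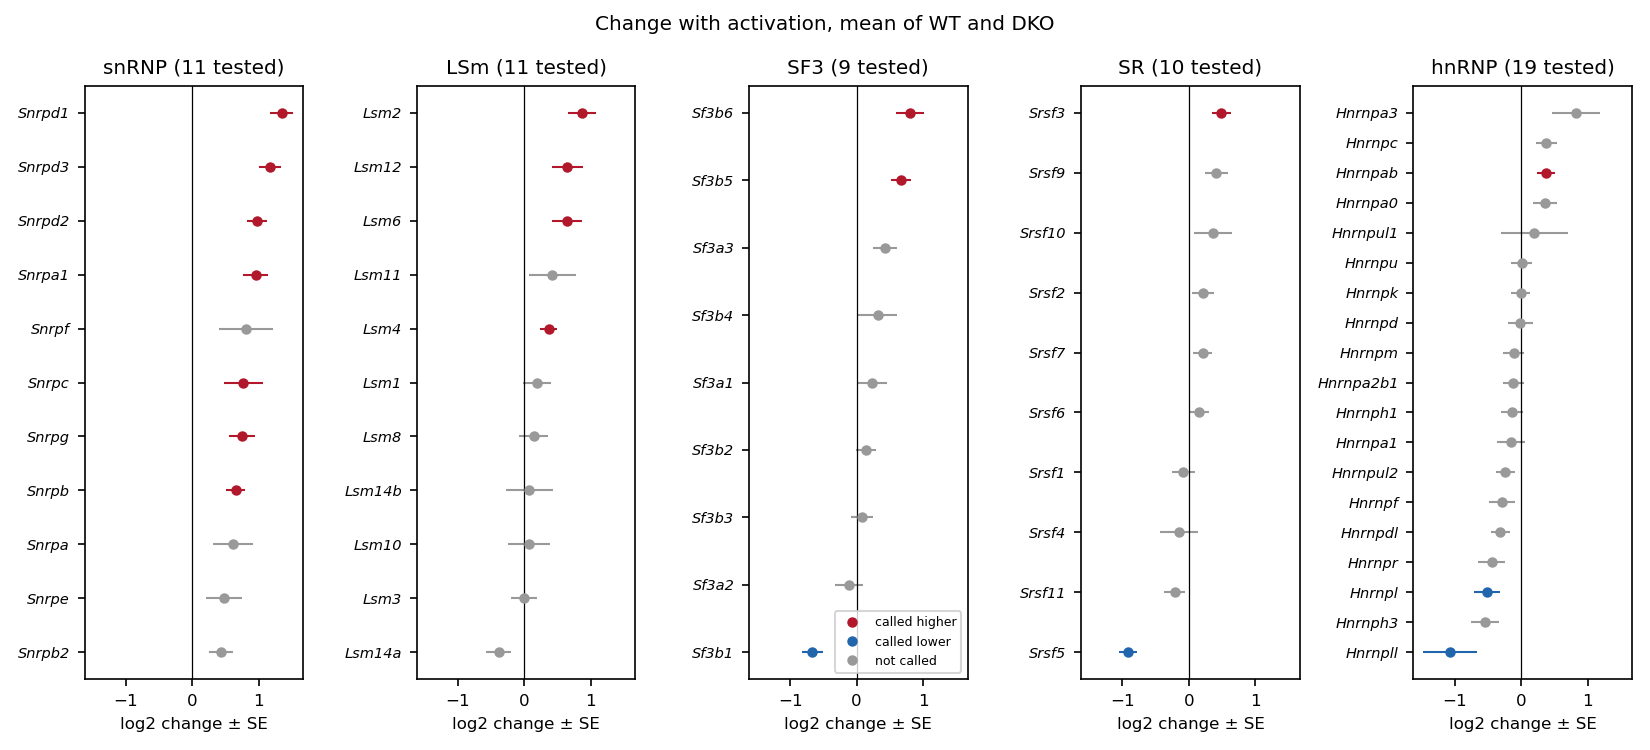
Log2 change with activation, as the mean of WT and DKO, with its standard error for each of the 60 tested members, a panel per family; red points are called higher, blue called lower and grey not called. All 11 Snrp genes lie right of 0, while 13 of 19 hnRNP genes lie left of it.

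The Sm ring, the collar of 7 proteins around the U1, U2, U4 and U5 RNAs, held the largest rises. Snrpd1, which encodes SmD1, stood at 77.3 and 65.6 CPM in resting WT and at 209 and 204 CPM in activated WT, and in DKO at 80.6 and 78.0 CPM at rest and 156 and 208 CPM after activation. Its change was 1.35 ± 0.17 on the log2 scale (SE), with an edgeR adjusted p of 4.87e-07. Every activated library lay above every resting one.
Snrpd3 (ENSMUSG00000020180.10, SmD3; GRCm38 chromosome 10, 75517551 to 75537381, plus strand, 4 exons) stood at 112 and 158 CPM in WT at rest and at 274 and 293 CPM after activation. In DKO it stood at 87.7 and 111 CPM at rest and at 236 and 243 CPM after activation. The change was 1.17 ± 0.16 (edgeR adjusted p 1.90e-06), again with no overlap between states. The deposited counting gives no strand setting, and Snrpd3 shares 232 exon bases with Gucd1 on the opposite strand.
Snrpd2 (ENSMUSG00000040824.3, SmD2; chromosome 7, 19149722 to 19153542, plus strand, 3 exons) stood at 199 and 258 CPM in WT at rest and at 463 and 511 CPM after activation. In DKO it went from 237 and 244 CPM to 395 and 475 CPM. The change was 0.97 ± 0.14 (edgeR adjusted p 4.83e-06) and the states did not overlap.

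Snrpb, which encodes SmB and is the most abundant Snrp gene in this table by UMI count, stood at 346 and 440 CPM in WT at rest and 540 and 619 CPM after activation, and in DKO at 337 and 358 CPM and then 497 and 673 CPM. It rose by 0.65 ± 0.14 (edgeR adjusted p 0.00068) with no overlap. Snrpg (SmG), given although the naming rule does not take it, lay at 62.5 to 80.6 CPM in the resting libraries and at 91.2 to 132 CPM in the activated ones, a rise of 0.75 ± 0.19 (edgeR adjusted p 0.00405). The last pair of the ring were not called. Snrpe (SmE) lay at 23.7 to 54.1 CPM at rest and 28.6 to 65.2 CPM after activation and differed by 0.47 ± 0.27. A near-identical copy of the Snrpe 3′ end lies at 2 other loci, so its count is uncertain. Snrpf (SmF), at a mean of only 13.5 UMIs a library, differed by 0.81 ± 0.41 (edgeR adjusted p 0.14). In the Sm ring, then, 5 of 7 genes were called higher and all 7 estimates were above 0.

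The particle-specific Snrp genes leaned the same way. Snrpa1, the U2 protein that binds stem-loop RNA together with Snrpb2, stood at 73.8 and 106 CPM in WT at rest and at 180 and 132 CPM after activation, and in DKO at 83.0 and 69.3 CPM and then 147 and 177 CPM. It rose by 0.96 ± 0.19 (edgeR adjusted p 0.000204) and the states did not overlap. Its partner Snrpb2 lay at 65.3 to 96.5 CPM at rest and 97.8 to 124 CPM after activation, a difference of 0.43 ± 0.18 that missed the threshold (edgeR adjusted p 0.0755). Snrpc, the U1 protein that helps the particle contact the 5′ splice site and also outside the naming rule, lay at 16.1 to 40.3 CPM at rest and 41.6 to 52.7 CPM after activation (0.77 ± 0.29, edgeR adjusted p 0.0406). Snrpa, the U1 stem-loop protein, differed by 0.61 ± 0.30 and was not called; 3 other loci carry a near-identical copy of its 3′ end, so its count is uncertain. In 9 of the 11 Snrp genes all activated libraries lay above all resting ones, which held for 14.9% of all tested genes. The opposite separation, with all activated libraries below all resting ones, held for 13.0% of all tested genes and 6 of the 62 members.

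**Figure D2:**
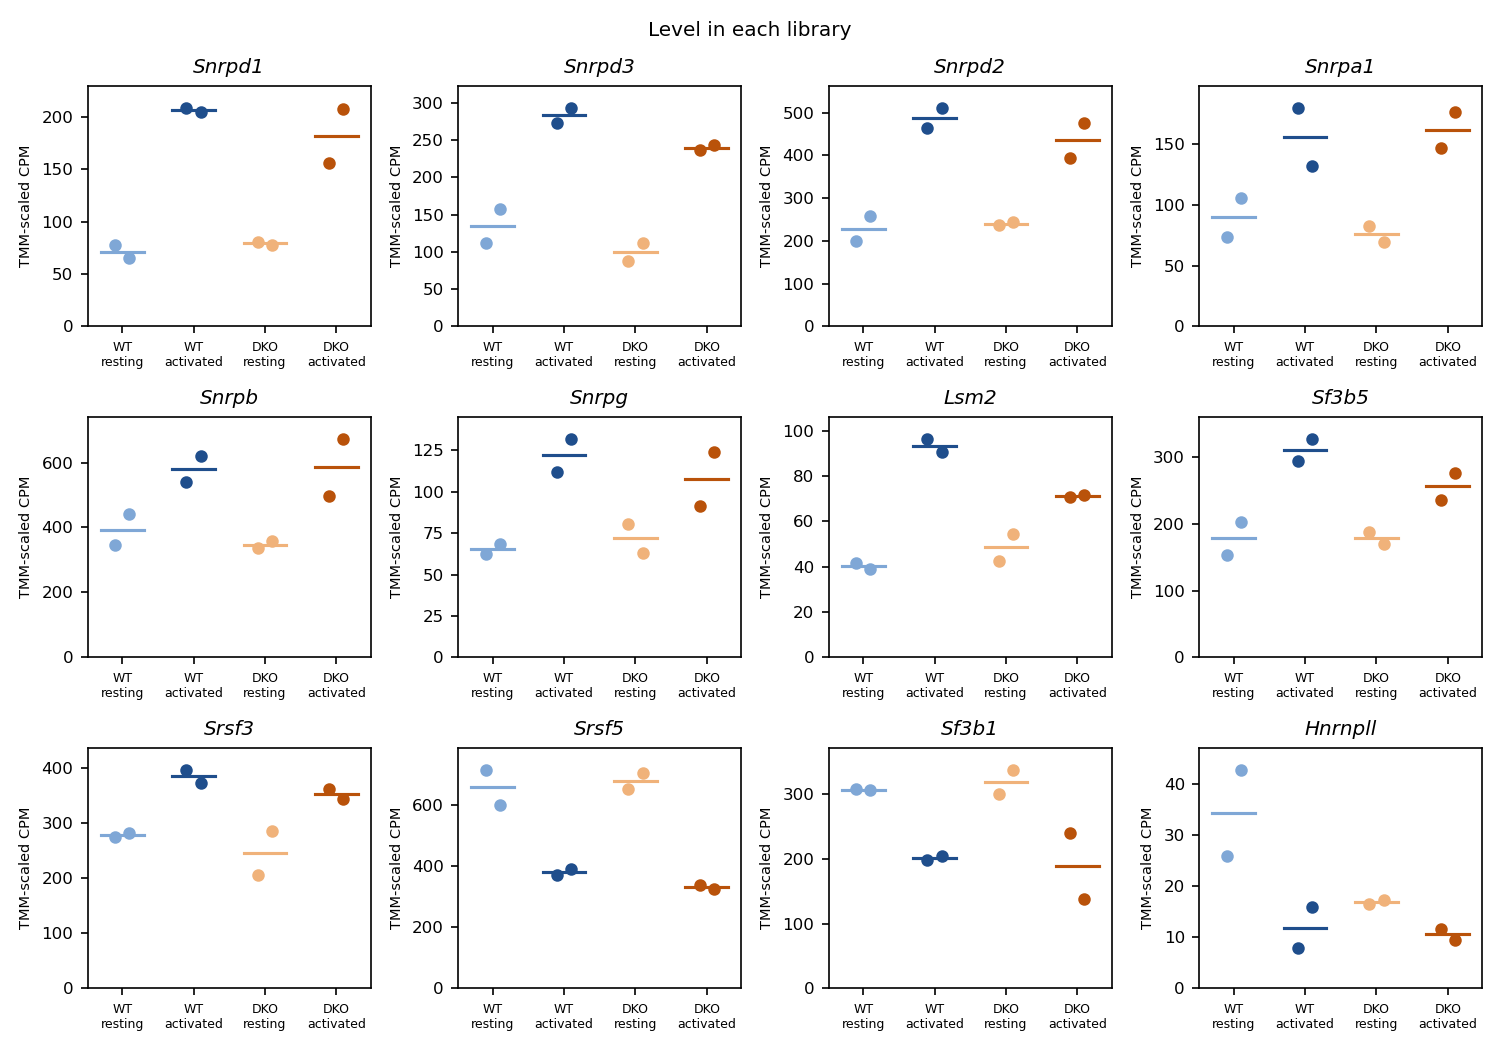
TMM-scaled CPM of 12 members in each of the 8 libraries, a point per library and a bar at the mean of the 2 libraries of a group, all axes from 0. Activated libraries lie above resting ones for the first 9 genes and below them for Srsf5, Sf3b1 and Hnrnpll.

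These rises came with other changes whose part in them was not tested. Of 23 tested genes of proliferation, 18 were higher after activation and 0 lower. The summed level of all 24 genes of that list was 1377 to 1707 CPM at rest and 3177 to 4445 CPM after activation. Of 15 macrophage and monocyte markers 14 were higher and 1 lower, and of 15 B cell markers 3 were higher and 8 lower. Of 19 interferon-stimulated genes 18 were higher and 0 lower. Of 14 DC markers 2 were higher and 3 lower, of 12 NK markers 4 were higher and 0 lower, and of 6 plasma cell markers 2 were higher and 3 lower. Of 23 tested immediate early and heat-shock genes 2 were higher and 15 lower. The summed level of all 27 genes of that list was 4525 to 6008 CPM at rest and 3310 to 3823 CPM after activation.

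LSm proteins resemble Sm proteins and form the rings that hold U6 RNA in the nucleus or start mRNA decay in the cytoplasm. Of the 6 tested ring members 3 were called. Lsm2, shared by both rings, stood at 41.5 and 38.8 CPM in WT at rest and at 96.5 and 90.5 CPM after activation, and in DKO at 42.7 and 54.5 CPM and then 70.7 and 71.6 CPM. It rose by 0.86 ± 0.21 (edgeR adjusted p 0.0026) without overlap. Lsm4, the family's most abundant gene by UMI count, lay at 547 to 607 CPM at rest and 647 to 839 CPM after activation, and rose by 0.37 ± 0.13 (edgeR adjusted p 0.0302). Lsm6, of which 1 other locus carries a near-identical 3′ end, lay at 40.8 to 60.2 CPM and then 64.8 to 78.7 CPM, a rise of 0.64 ± 0.23 (edgeR adjusted p 0.0306). Lsm12 lay at 33.4 to 52.2 CPM and then 56.5 to 85.9 CPM (0.65 ± 0.24, edgeR adjusted p 0.038). In each of these genes the states did not overlap. The ring members Lsm1 (0.19 ± 0.21), Lsm3 (0.00 ± 0.20) and Lsm8 (0.14 ± 0.22) were not called, nor were Lsm10 and Lsm11. Lsm14a, a P-body protein, was lower in all activated libraries, at 72.0 to 97.8 CPM against 99.6 to 115 CPM, but missed the threshold (-0.38 ± 0.19, edgeR adjusted p 0.126).

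In the SF3 complex the small subunits and the large scaffold went opposite ways. Sf3b1, the large branch-point subunit (ENSMUSG00000025982.13; chromosome 1, 54985169 to 55027481, minus strand, 25 exons), stood at 308 and 306 CPM in WT at rest and at 198 and 205 CPM after activation. In DKO it stood at 301 and 338 CPM at rest and at 240 and 138 CPM after activation. It fell by 0.66 ± 0.16 (edgeR adjusted p 0.00172) and the states did not overlap. Sf3b5, the smallest SF3b subunit, went from 154 and 203 CPM to 295 and 328 CPM in WT and from 187 and 170 CPM to 236 and 277 CPM in DKO, a rise of 0.67 ± 0.15 (edgeR adjusted p 0.00122) without overlap. Sf3b6, which contacts the branch-point adenosine, lay at 49.8 to 70.3 CPM at rest and 66.8 to 133 CPM after activation, with overlap (0.81 ± 0.21, edgeR adjusted p 0.00384). Without DKO activated replicate 1 the change in Sf3b6 was 0.53 and no longer called (edgeR adjusted p 0.0989). The other SF3b genes Sf3b2, Sf3b3 and Sf3b4, and all 3 SF3a genes, were not called, with estimates from -0.12 to 0.43. Sf3a3 came nearest, at 93.6 to 106 CPM at rest and 114 to 165 CPM after activation (edgeR adjusted p 0.0657).

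Among SR proteins the changes were in opposite directions and in few genes. Srsf5 (ENSMUSG00000021134.17; chromosome 12, 80945504 to 80950507, plus strand, 8 exons) stood at 716 and 602 CPM in WT at rest and 370 and 390 CPM after activation. In DKO it stood at 652 and 706 CPM at rest and at 339 and 325 CPM after activation. It fell by 0.91 ± 0.13 (edgeR adjusted p 3.72e-06), and all activated libraries lay below all resting ones. Srsf3, the smallest SR protein, went from 274 and 281 CPM to 396 and 373 CPM in WT and from 206 and 286 CPM to 361 and 344 CPM in DKO, a rise of 0.49 ± 0.14 (edgeR adjusted p 0.0105) without overlap. Without WT resting replicate 1 the change in Srsf3 was 0.46 (edgeR adjusted p 0.0512) and without DKO resting replicate 1 it was 0.37 (edgeR adjusted p 0.0612). Scaled by total UMIs in place of TMM it was 0.27 and not called (edgeR adjusted p 0.133). The other 8 SR genes, among them the splicing activators Srsf1 and Srsf2, were not called and lay between -0.21 and 0.42.

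Most hnRNP genes were not called. Hnrnpll, the CD45 splicing regulator, stood at 26.0 and 42.8 CPM in WT at rest and at 7.82 and 15.9 CPM after activation, and in DKO at 16.6 and 17.3 CPM and then 11.6 and 9.54 CPM. It fell by 1.07 ± 0.40 (edgeR adjusted p 0.0452) at a mean of 15.2 UMIs a library. Its relative Hnrnpl, also a CD45 splicing repressor, lay at 83.0 to 108 CPM at rest and 57.5 to 78.7 CPM after activation (-0.52 ± 0.20, edgeR adjusted p 0.0455). Neither gene overlapped between states. In 3 of the 20 hnRNP genes all activated libraries lay below all resting ones, a share of 15% against 13.0% of all tested genes. Hnrnpab, the family's most abundant gene by UMI count, lay at 357 to 432 CPM at rest and 414 to 606 CPM after activation, with overlap, and rose by 0.37 ± 0.14 (edgeR adjusted p 0.0399); it shares 809 exon bases with Phykpl on the opposite strand. The other 16 tested hnRNP genes lay between -0.54 and 0.83 and were not called, the upper end being Hnrnpa3, whose 3′ end has 26 near-identical copies elsewhere and whose count is uncertain. Of these, Hnrnph3 was lower in all activated libraries and Hnrnpc higher, both short of the threshold (edgeR adjusted p 0.0546 and 0.0599). The 3′ end of Hnrnpc has 1 near-identical copy elsewhere. Among 15 T cell markers 1 was higher and 7 lower in the mean of WT and DKO (median -0.38). Their summed level was 1808 to 3337 CPM at rest and 1456 to 2325 CPM after activation. Of 15 B cell markers 3 were higher and 8 lower (median -0.58). By genotype, 0 of the 15 T cell markers were higher and 8 lower in WT (median -0.74), and 2 were higher and 1 lower in DKO (median -0.06). The medians of the B cell markers were -0.59 in WT and -0.67 in DKO. Hnrnpll differed by -1.48 ± 0.51 in WT (edgeR adjusted p 0.0491) and by -0.65 ± 0.62 in DKO, and the difference between genotypes was 0.83 ± 0.82 (edgeR adjusted p 0.997). Leaving out any of the 4 WT libraries ended the WT call, with values from -2.08 without WT activated replicate 2 to -1.07 without WT activated replicate 1. The part of T cells or B cells in the changes of Hnrnpll and Hnrnpl was not tested.

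How many of these calls hold depends on the setting. Of the 19 called members 10 kept their call in all 16 alternatives: Snrpd1, Snrpd2, Snrpd3, Snrpa1, Snrpb, Snrpg, Lsm2, Sf3b5, Sf3b1 and Srsf5. Hnrnpab, Hnrnpl, Hnrnpll, Lsm4, Lsm6, Lsm12 and Snrpc each lost theirs in 7 to 10 alternatives, and each of the 8 libraries, left out, ended the call of 1 or more of them. Leaving out WT resting replicate 1 left 9 members higher, and leaving out any of WT resting replicate 2, DKO activated replicate 1 and WT activated replicate 1 left 2 lower. At the lowest estimate over the libraries left out, the change in Lsm12 was 0.46 without DKO resting replicate 2, for Snrpc 0.44 without that library, and for Hnrnpll -0.86 without WT activated replicate 1. Lsm6 stood at 0.48 without WT resting replicate 1, Hnrnpab at 0.28 without WT activated replicate 1, Lsm4 at 0.31 without WT resting replicate 1 and Hnrnpl at -0.42 without DKO resting replicate 2, and none of these was called.

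The scaling sets where 0 lies. Scaling by total UMIs in place of TMM shifted the median of all genes by -0.21 and left 9 members higher and 11 lower, with 10 members changing sign and 0 of the called ones among them. The called members that were higher then made up 45.0% against 78.9% under TMM, and over all genes 32.5% against 54.9%. The medians of the families moved down with it, from 0.77 to 0.56 for the Snrp genes and from -0.12 to -0.33 for the hnRNP genes. Over all 8616 tested genes, 908 were higher and 1889 lower under total scaling. With it 6 of 11 Snrp genes were higher and 0 lower, and 0 of 19 hnRNP genes were higher and 7 lower. Of the 11 Lsm genes 1 was higher and 1 lower (median -0.02), of the 10 SR genes 0 were higher and 2 lower (median -0.03), and of the 9 Sf3 genes 2 were higher and 1 lower (median 0.03). As shares of all UMIs, the Snrp genes together took 0.125% ± 0.0139 (SD, n = 2) in WT at rest and 0.192% ± 0.00151 after activation, and 0.116% ± 0.00227 and 0.182% ± 0.0134 in DKO. All activated libraries lay above all resting ones. The hnRNP genes took 0.347% ± 0.00502 and then 0.28% ± 0.0295 in WT, and 0.327% ± 0.029 and then 0.292% ± 0.00625 in DKO, with the activated libraries below the resting ones. That separation depended on the total. Without mitochondrial and ribosomal protein genes the hnRNP states overlapped, with DKO resting replicate 1 at 0.342% and WT activated replicate 1 at 0.350%. SR genes took 0.262% ± 0.00585 and then 0.214% ± 0.00423 in WT and 0.232% ± 0.0286 and then 0.197% ± 0.0174 in DKO, with overlap because DKO resting replicate 1 stood at 0.212%. The Lsm and Sf3 genes overlapped between states, and all 62 together took 0.878% to 0.985% at rest and 0.894% to 0.977% after activation, again with overlap.

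**Figure D3:**
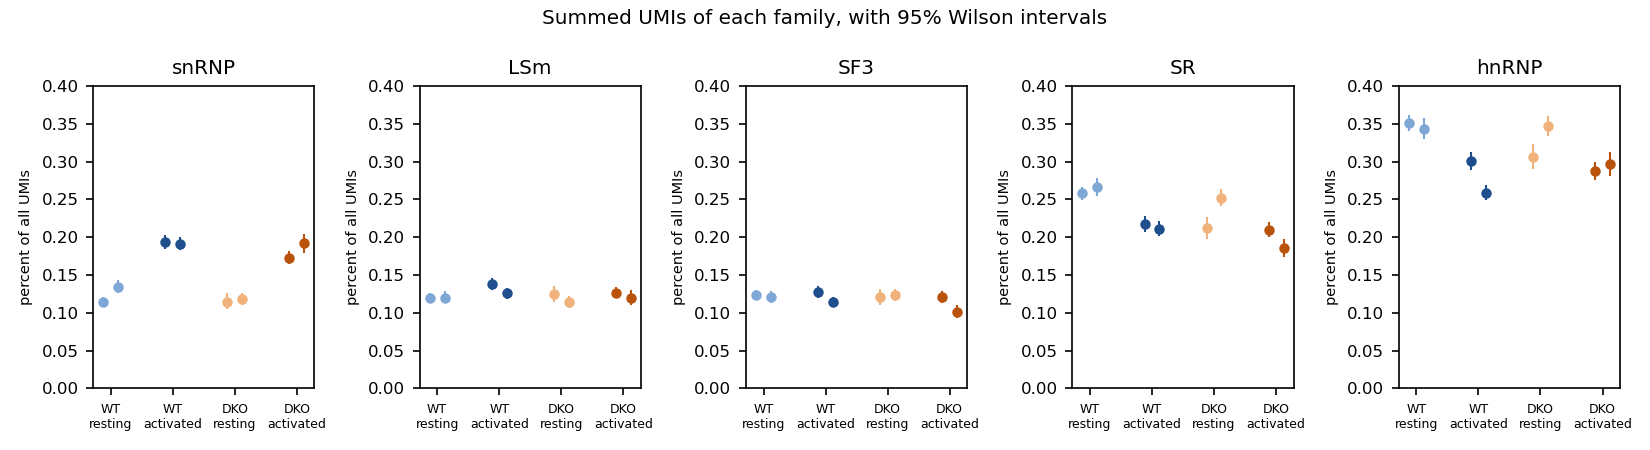
Summed UMIs of each family as a percentage of all UMIs, a point per library with its 95% Wilson interval, which covers counting error only. The Snrp share is higher in the 4 activated libraries than in the 4 resting ones, and the hnRNP share is lower. On a total without mitochondrial and ribosomal protein genes, not drawn, the hnRNP share overlaps between states.

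The members called higher had short coding sequences. Their median coding length was 393 bases over 5 exons, against 1119 bases over 9 exons for the 41 members not called and 852 bases over 7 exons for all genes called higher with a gene model. Their median gene span, introns included, was 10116 bases, close to the 10147 bases of the members not called. The Snrp genes as a family have a median coding length of 378 bases and the Lsm genes 396, so short coding sequences are common to both families, called or not. The 4 members called lower had a median of 12.5 exons and 4.5 annotated transcripts with a retained intron, where all genes called lower had 11 exons and 1 such transcript. With 3′ counts the isoforms cannot be told apart.

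Members called in both genotypes moved the same way, and the number called differed with the libraries left out. In WT 9 members were higher and 2 lower, where 14.4 percent of all genes were called, 8.44 percent higher and 5.92 percent lower. In DKO 6 were higher and 2 lower, where 15.3 percent of all genes were called, 9.02 percent higher and 6.33 percent lower. Snrpd1, Snrpd2, Snrpd3, Snrpa1 and Snrpb were higher in both and Srsf5 was lower in both, and 0 members were called in opposite directions. Of the 11 WT calls 2 (Snrpd1 and Snrpd2) held in all 17 alternatives, and of the 8 DKO calls 2 (Snrpd3 and Srsf5). Without WT resting replicate 1 the WT counts were 2 higher and 0 lower. Without WT activated replicate 1 they were 4 and 0, and without WT activated replicate 2 they were 5 and 1. Without WT resting replicate 2 the count lower was 1. Without DKO activated replicate 2 the DKO counts were 3 higher and 1 lower, and without DKO resting replicate 2 the count lower was 1. By the authors' deposited table, 5 members were higher and 1 lower in WT, and 5 higher and 2 lower in DKO, and all of these are among the edgeR calls. Of all genes with an adjusted p in that table, 811 of 7384 were called in WT and 892 of 8393 in DKO.

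The rise of Snrpd1 was 1.51 ± 0.24 in WT against 1.18 ± 0.26 in DKO. Snrpd3 rose by 1.09 ± 0.22 and 1.24 ± 0.24, and Snrpd2 by 1.10 ± 0.20 and 0.84 ± 0.21. Srsf5 fell by 0.80 ± 0.18 and 1.03 ± 0.19. The difference between genotypes in these 4 genes was -0.34 ± 0.35, 0.15 ± 0.33, -0.26 ± 0.29 and -0.24 ± 0.27 in that order, none larger than its standard error. Lsm2 was 1.21 ± 0.29 in WT and 0.52 ± 0.32 in DKO, with a call in WT alone and none for the difference. Without WT resting replicate 1 or WT activated replicate 1 the WT change in Lsm2 was 1.25 or 1.16 and was not called. The widest gap was in Snrpf, at 6.32 and 16.1 CPM in WT at rest, 36.5 and 25.7 CPM after activation, and in DKO at 19.0 and 13.6 CPM and then 14.1 and 19.1 CPM. Its change was 1.58 ± 0.54 in WT (edgeR adjusted p 0.0445) and 0.03 ± 0.62 in DKO, and the WT change was not called at 0.93 without WT resting replicate 1, 1.30 without WT activated replicate 1 or 1.8 without WT activated replicate 2. The difference itself was -1.54 ± 0.82 with an edgeR adjusted p of 0.997.

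**Figure D4:**
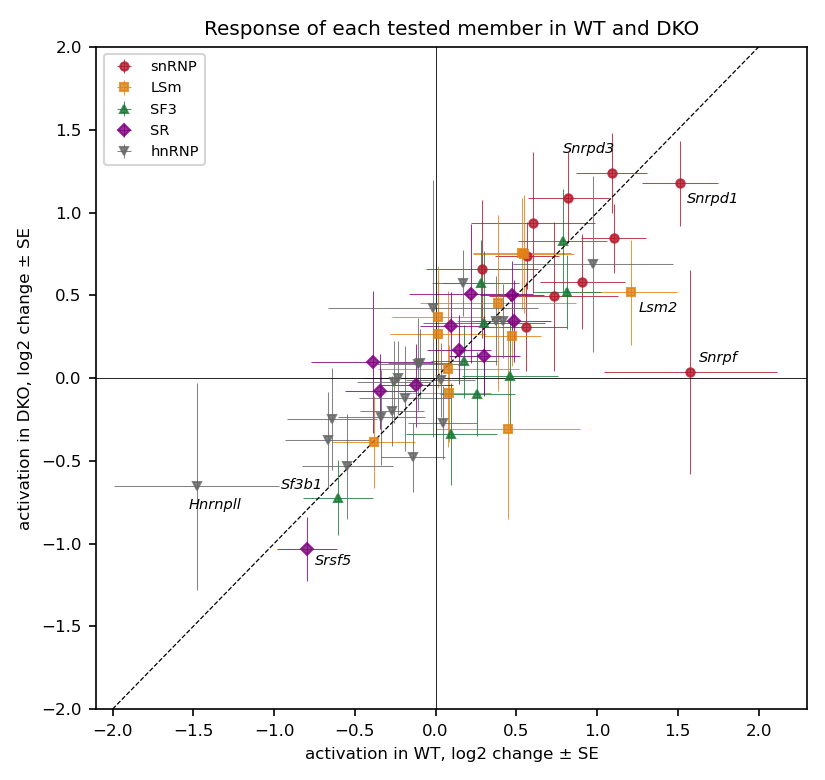
Log2 change with activation in DKO against that in WT for the 60 tested members, with standard errors on both axes, marker and colour by family, and a dashed line of equal change. The 5 genes higher in both genotypes lie at the upper right, Srsf5 at the lower left, and Snrpf far right of the line with wide errors.

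Genotype changed no member at the threshold. The edgeR test called 0 of 60 members for DKO minus WT as the mean of both states, at rest or after activation, and 0 in the interaction, and the counts were 0 under every alternative, DESeq2 and limma-voom included. Background calls were 0.209, 0.162, 0.174 and 0 percent. At an unadjusted p under 0.05 there were 2 members in the mean, 1 at rest, 1 after activation and 0 in the interaction. The smallest p in the mean was for Srsf2, an SR protein that activates exons, at -0.41 ± 0.16 (edgeR adjusted p 0.703). This gene shares 460 exon bases with Mettl23 and 288 with Mfsd11, both on the opposite strand. Srsf2 counted 164 and 246 CPM in WT and 166 and 157 CPM in DKO at rest, and at 261 and 238 CPM against 163 and 193 CPM after activation, so the resting groups overlapped and the activated ones did not. Hnrnpm, an hnRNP protein that shares 1169 exon bases with March2 on its own strand, followed at 0.36 ± 0.15, and Snrpd3 at -0.32 ± 0.16. At rest the order was Hnrnpm (0.51 ± 0.22), Hnrnpll (-0.97 ± 0.51) and Hnrnpk (-0.37 ± 0.20), whose 3′ end has 2 near-identical copies elsewhere. After activation it was Srsf2 (-0.50 ± 0.23), Snrpf (-0.94 ± 0.55) and Lsm14b (-0.84 ± 0.50). In the interaction it was Snrpf, Lsm2 (-0.69 ± 0.43) and Hnrnpab (0.40 ± 0.28). A difference of such size is not shown to be absent at these standard errors.

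Other genes of the splicing machinery were counted in 8 lists. Over these, 20 of 174 tested genes were higher after activation and 17 lower, shares of 11.5% and 9.77%, both under the background given above. The lists differed among themselves. The list of snRNP assembly holds factors that load Sm proteins onto snRNAs, and others such as the cap-binding gene Ncbp2. Of its 17 tested genes 6 were higher and 0 lower. Prmt5, the methyltransferase that modifies Sm protein tails, lay at 69.3 to 107 CPM at rest and 148 to 210 CPM after activation (0.95 ± 0.18, edgeR adjusted p 0.000186). Clns1a, its Sm-binding partner, lay at 87.7 to 107 CPM and then 129 to 165 CPM (0.58 ± 0.17). The other 4 of these, outside the naming rule, were Smn1 (0.75 ± 0.24), Gemin6 (0.94 ± 0.31), Wdr77 (0.61 ± 0.23) and the cap-binding gene Ncbp2 (0.74 ± 0.22). The count higher was 1 under total scaling, 3 under DESeq2, and 3 without WT activated replicate 1, WT resting replicate 2 or DKO activated replicate 2.

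In the list of kinases of SR proteins 0 of 9 tested genes were higher and 3 lower, the other 6 not being called. Srpk3 lay at 281 to 398 CPM at rest and 131 to 203 CPM after activation (-1.06 ± 0.16, edgeR adjusted p 4.3e-06), and Clk4 at 75.9 to 91.6 CPM and then 42.4 to 54.7 CPM (-0.77 ± 0.21). Clk1 changed by -0.68 ± 0.20 and was outside the naming rule. Other SR-related genes had 1 of 23 higher, Tra2b (0.52 ± 0.20), and 5 lower, led by Pnn (-0.74 ± 0.16) and Rbm5 (-0.65 ± 0.15). In this list DESeq2 gave 0 higher and 2 lower. Without a low-count filter, or with that of 10 CPM in 2 libraries, 0 were higher and 5 lower. Scaled by total UMIs, 908 of all 8616 tested genes were higher and 1889 lower. Under total scaling 5 kinases and 8 SR-related genes were lower and 0 of either list higher, and leaving out a library gave 2 to 4 kinases and 2 to 5 SR-related genes lower.

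In the remaining lists few genes were called. Exon junction and export factors had 3 of 16 higher and 0 lower, among them Magoh (0.92 ± 0.25) and Magohb (1.60 ± 0.45). Proteins of U5, the tri-snRNP and the minor spliceosome had 3 of 26 higher and 0 lower, led by Snrnp25 (1.42 ± 0.16), a minor spliceosome protein that went from 122 to 197 CPM at rest to 391 to 468 CPM after activation, and Txnl4a (0.44 ± 0.14). Other U1 and U2 proteins had 2 of 22 higher, Ddx39 (0.73 ± 0.15) and Phf5a (0.63 ± 0.16), a partner of Sf3b1, and 4 lower, led by Zrsr1 (-1.70 ± 0.42) and Sf1 (-0.70 ± 0.18). Prp19 and catalytic-step proteins had 2 of 30 higher, Bud31 (0.46 ± 0.17) and Ppil1 (0.66 ± 0.25), and 2 lower, Syf2 (-0.44 ± 0.14) and Xab2 (-0.50 ± 0.19). Leaving out a library gave 1 to 3 higher for the exon junction list and for the U5 list, and 0 to 3 in either direction for the Prp19 list. Other hnRNP and regulator genes had 3 of 31 higher, led by Ybx1 (0.77 ± 0.13) and Celf2 (0.47 ± 0.14), and 3 lower, led by Cirbp (-1.91 ± 0.23), the cold-inducible RNA-binding protein, and Safb (-0.67 ± 0.24). Under total scaling the Prp19 list had 0 higher and 7 lower, and the hnRNP and regulator list 1 and 6. The U5 list then had 1 and 1, the exon junction list 3 and 1, and the other U1 and U2 proteins 2 and 5. Over all tested genes 908 were higher and 1889 lower under that scaling. DESeq2 gave 0 and 1 for the Prp19 list and 3 and 1 for the hnRNP and regulator list.

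**Figure D5:**
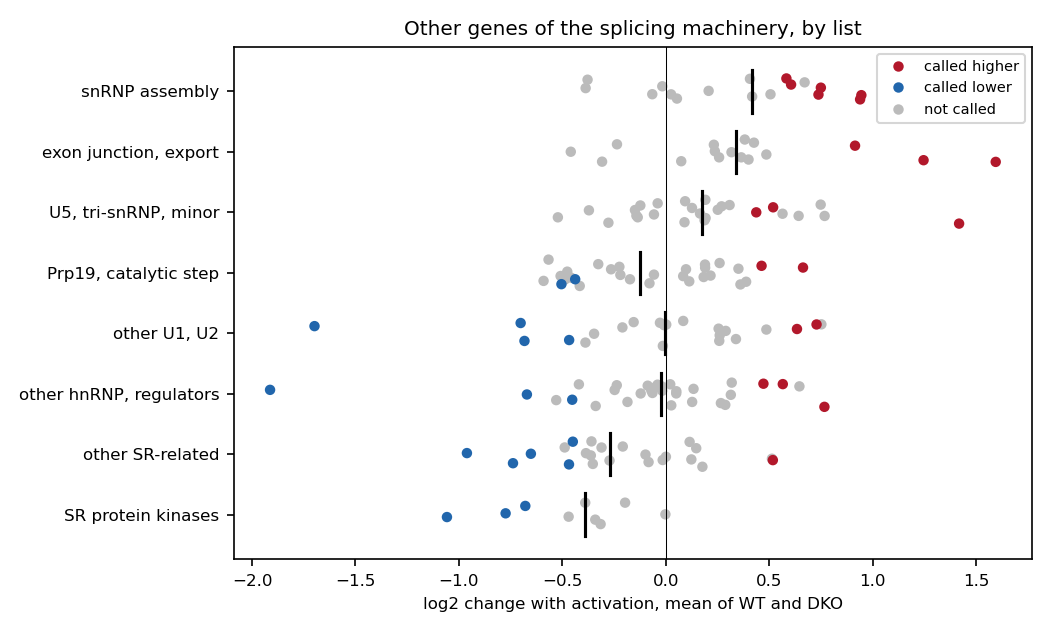
Log2 change with activation, as the mean of WT and DKO, of 174 tested splicing genes outside the 62 members, a row per list and a point per gene, with the list's median as a black bar; red is called higher, blue lower and grey not called. The median is highest for snRNP assembly and lowest for the SR protein kinases.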

How the data were processed

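The submitters' processing notes name mm10 as the build and, as tools, DESeq2, HTSeq, TopHat2, cutadapt 1.8.3 and bcl2fastq 2.17.1.14. For annotation, strand setting and UMI collapsing, the sources used here say nothing. The authors deposited UMI counts per gene in a single table, with log2 fold changes and adjusted p-values from their own comparisons; 16 other per-sample columns were not used. Every gene there has 6 or more UMIs in some library.

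Counts of all 8 libraries, in 4 groups of 2, were fitted in edgeR 4.0.16 (R 4.3.3) with filterByExpr by group, TMM and the quasi-likelihood F test, leaving 8616 tested genes and 4 residual degrees of freedom. Called means an adjusted p under 0.05. The SE is the size of a log2 change divided by the root of F. Libraries of a group differed beyond counting noise (chi-square per degree of freedom 2.40 to 2.91), so none was treated as a duplicate. On simulated activation means over 8616 genes, 200 were changed, 50 at each size. Called were 96% of those changed by 2 (log2), 60% by 1, 44% by -1 and 86% by -2, and 0.0832% of unchanged ones. In the data 2556 genes were called, and the rates with that many changed genes were not tested. Intervals cover counting error only.

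Copies share 95% or more over 150 or more of a gene's last 300 transcript bases (blastn 2.17.0, GENCODE M21). Promoters come from RefSeq. Members and lists were chosen with earlier results of these data known. Named are, per family and direction, up to 4 called members by p, the most abundant member, called members with a fold of 2 or more, the 3 smallest genotype p-values, and up to 2 called genes per list and direction. Alternatives were DESeq2 1.42.0 with and without independent filtering, DESeq2 size factors, total UMI scaling, no filter, 10 CPM in 2 libraries, limma-voom 3.58.1, only the libraries compared, and leaving out libraries. Proteins are not shown here.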

Additional observations from a re-analysis of the deposited data

Results flagged for a closer look

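Sf3a2, the SF3a subunit that helps bind U2 to the branch site, is listed because both WT activated libraries lay above both WT resting ones while both DKO activated libraries lay below both DKO resting ones. It stood at 63.2 and 68.2 CPM in WT at rest and at 71.7 and 68.5 CPM after activation, and in DKO at 87.7 and 71.8 CPM and then 55.3 and 71.6 CPM. Activation in DKO minus activation in WT was -0.44 ± 0.42 on the log2 scale, with an edgeR adjusted p of 0.997 in the interaction, so the directions are opposite in these libraries without a difference that passes the test. That the gene stands out among the members was not tested. Sf3a2 shares 429 exon bases with Plekhj1 on the opposite strand.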

How the results depend on the processing

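With 15 members higher and 4 lower in the activation mean, total UMI scaling gave 9 and 11, and DESeq2, with or without independent filtering, gave 2 lower. Leaving out a library gave 9 to 16 higher and 2 to 5 lower. For activation in WT (9 and 2), total scaling gave 5 higher and 5 lower, DESeq2 with or without independent filtering gave 5 and 1, and 5 were lower without both libraries of lowest depth, with only the libraries compared and with limma-voom; leaving out a library gave 2 to 10 higher and 0 to 3 lower. For activation in DKO (6 and 2), 1 was higher and 1 lower without both libraries of lowest depth and 1 lower with only the libraries compared; leaving out a library gave 3 to 6 higher and 1 to 3 lower. The causes of these differences were not tested, and runs with libraries left out also hold fewer samples. Genotype and interaction counts were 0 in each alternative run. Lsm14b after activation (DKO minus WT, -0.84) was 0.21 without WT activated replicate 1, and over the libraries left out it ranged from -1.45 to 0.21. No paired analysis was possible because the labels carry no replicate numbers. The numbers of replicates given here follow the order of the samples in the series and pair nothing. Members with few UMIs had wide standard errors, such as Snrpf and Hnrnpll in the report; calls were not tested by depth.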
